A study of Mus musculus with 6 samples.

Results

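Genes of striated muscle, the voluntary muscle of the skeleton and the muscle of the heart, were followed in bulk RNA sequencing libraries made from mouse aorta. The 10 members, given by name, are 10 of the 56748 genes in the table of counts per gene. They are 6 skeletal genes (Acta1, Tnnt3, Tnni2, Tnnc2, Actn3 and Myh4), 3 cardiac genes (Actc1, Myh6 and Tnnt2) and Mb, which both muscles use. The aortas came from sST2-KO mice, which lack soluble ST2, the secreted receptor isoform for the cytokine IL-33. They were compared with WT littermates, and the series asks how soluble ST2 affects aortic disease. All mice were Apoe -/-, were 6 months old and received angiotensin II from an osmotic minipump for 28 days, with 3 mice in each group and no group without angiotensin II. How the sST2-KO allele was made, and which stretch of the aorta was taken, is not given in the sources used here.

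The sarcomere, the contractile unit of striated muscle, is built from thin filaments of actin and thick filaments of myosin, and the troponin complex on the thin filament switches contraction on when calcium binds. Fast skeletal fibres and cardiac muscle build many of its parts from separate paralogs, while slow skeletal fibres share several of theirs with the heart. The aortic wall itself is contracted by smooth muscle, which has no troponin, and uses the actin Acta2 and the myosin Myh11. At its root the aorta joins the muscle of the heart. Cardiac muscle is also known to extend from the atria along the large veins of the chest in mice.

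The 6 libraries held 15615658 to 17988552 counts, so that 3 counts, the level a count of 0 allows, equalled 0.148 to 0.239 CPM (counts relative to the library's TMM-scaled total). This limit covers counting error only. Mitochondrially encoded genes took 7.08% to 23.7% of counts in sST2-KO libraries and 18.4% to 37.8% in WT libraries, lowest in sST2-KO replicate 2 and highest in WT replicate 2. Smooth muscle markers were present throughout: the 14 genes summed to 7422, 8804 and 14470 CPM in sST2-KO replicates 1 to 3 and to 4622, 12990 and 6641 CPM in WT replicates 1 to 3. Tagln, a smooth muscle marker named after its values were seen, had 11.5 to 30.6 CPM in sST2-KO and 11.3 to 28.3 CPM in WT. Libraries that stood apart by their markers were found in both groups. The 11 airway epithelium markers summed to 41200 CPM in sST2-KO replicate 2, to 35.2 and 36.2 CPM in the other sST2-KO libraries and to 52.1 to 91.7 CPM in WT libraries. The 10 hepatocyte markers summed to 394 to 643 CPM in sST2-KO libraries and to 345, 904 and 13470 CPM in WT libraries, the last of these being WT replicate 3. Between libraries, the median squared difference in counts, as a multiple of sampling noise and scaled by library totals alone, was 35.2 to 83.7 for sST2-KO replicate 2 and 37.9 to 83.7 for WT replicate 2 against the other libraries. It was lowest, 6.55, between WT replicates 1 and 3. WT replicate 2 and sST2-KO replicate 2 thus each stood apart from every other library, with the highest and the lowest mitochondrial share. In bulk tissue, fewer cells of a type and less RNA per cell cannot be told apart.

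Promoters of 3 members are shown first, because the results turn on these genes: Acta1, a skeletal actin with few counts, Actc1, its cardiac counterpart with many in some libraries, and Myh6, which was low in the library where Actc1 was highest. Of the 10 members, 7 had windows in the RefSeq table (build GRCm38.p6, 250 bases before to 50 after a start), and the windows lie at chr8:123894726-123895025, chr2:114052826-114053125 and chr14:54966558-54966857, all on the minus strand. Capitals mark CArG boxes, the element bound by serum response factor, and the TATA-type motif TATAAA, searched on both strands.
Acta1: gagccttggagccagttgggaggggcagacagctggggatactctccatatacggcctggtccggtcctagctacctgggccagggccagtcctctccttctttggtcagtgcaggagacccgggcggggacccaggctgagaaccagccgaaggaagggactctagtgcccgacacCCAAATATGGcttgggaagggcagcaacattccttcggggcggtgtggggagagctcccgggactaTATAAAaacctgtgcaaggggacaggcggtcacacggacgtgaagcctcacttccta
Actc1: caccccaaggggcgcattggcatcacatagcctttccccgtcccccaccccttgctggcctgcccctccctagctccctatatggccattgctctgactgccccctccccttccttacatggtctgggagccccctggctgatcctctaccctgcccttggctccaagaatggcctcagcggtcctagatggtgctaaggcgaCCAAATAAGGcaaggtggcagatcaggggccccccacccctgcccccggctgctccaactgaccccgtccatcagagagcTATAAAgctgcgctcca
Myh6: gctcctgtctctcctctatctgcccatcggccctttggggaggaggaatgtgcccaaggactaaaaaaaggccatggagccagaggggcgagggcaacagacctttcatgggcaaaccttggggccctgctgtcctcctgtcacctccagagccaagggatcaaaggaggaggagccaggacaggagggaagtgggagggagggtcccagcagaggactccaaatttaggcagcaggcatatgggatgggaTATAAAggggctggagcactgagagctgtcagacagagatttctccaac
Acta1 and Actc1 each held 1 CArG box and 1 TATAAA, and Myh6 held 1 TATAAA and no CArG box in this window. TATAAA began at position -7 from the listed start in Acta1, at 33 in Actc1 and at 1 in Myh6. Of the members not shown, Myh4 held both motifs, and the windows of Tnnc2, Mb and Tnnt2 held neither. Over 32851 windows of the same length, 1.63% held a CArG box and 13.6% held TATAAA. These are matches of letters, not measured binding.

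The cardiac members were the abundant ones, and 3 libraries from both groups held them at similar proportions. Myh6, the alpha myosin heavy chain of the mouse heart (ENSMUSG00000040752, chromosome 14, 55179378 to 55204384, minus strand, mm39), had 56.1, 4.16 and 0.865 CPM in sST2-KO replicates 1 to 3, against 153, 1.83 and 110 CPM in WT replicates 1 to 3. In all, 1 sST2-KO and 2 WT libraries were thus high and the other 3 low, and the groups overlapped. In counts this was 987, 84 and 13 in sST2-KO replicates 1 to 3 and 2780, 23 and 1838 in WT replicates 1 to 3. The highest library exceeded the lowest 177-fold. The fitted log2 change of sST2-KO over WT was -2.12 (SE 1.66), short of the threshold (adjusted p = 0.609 in edgeR's quasi-likelihood test), and -5.11 without sST2-KO replicate 1 (edgeR adjusted p = 0.409). Myh6 and Myh7, the beta myosin heavy chain, are 91.5% identical over their open reading frames with a longest exact run of 245 bases, so reads may be divided between them. Myh7 had the fewer counts of the pair: 34, 20 and 5 in sST2-KO replicates 1 to 3 and 96, 0 and 46 in WT replicates 1 to 3.

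Mb, which encodes the oxygen-binding protein myoglobin (ENSMUSG00000018893, chromosome 15, 76899687 to 76934870), had the same high and low libraries as Myh6. It reached 12.6, 0.148 and 0.466 CPM in sST2-KO replicates 1 to 3, against 38.2, 1.12 and 26.5 CPM in WT replicates 1 to 3. The 3 libraries with high Myh6 had the 3 highest Mb levels, and sST2-KO replicate 2 held only 3 Mb counts. The log2 change was -2.32 (SE 1.63, edgeR adjusted p = 0.577), and -6.18 without sST2-KO replicate 1 (edgeR adjusted p = 0.385). Apol6, on the opposite strand, overlaps 5942 of the 35184 bases of the Mb locus, and the strand setting of the counting is not given in the sources used here. Apol6 counts were 500 to 1436 in sST2-KO libraries and 521 to 1701 in WT libraries.

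Actc1, the cardiac alpha-actin (ENSMUSG00000068614, chromosome 2, 113877763 to 113884029), followed another order. It had 45.3, 161.5 and 4.46 CPM in sST2-KO replicates 1 to 3, against 88.6, 5.18 and 72.2 CPM in WT replicates 1 to 3. Its highest value was in sST2-KO replicate 2, the library with airway transcripts, where Myh6 and Mb were low. The log2 change was 0.35 (SE 1.25; edgeR adjusted p = 0.921), without sST2-KO replicate 2 it was -1.16 (edgeR adjusted p = 0.700), and without WT replicate 2 it was -0.22 (edgeR adjusted p = 0.966). A noncoding gene on the opposite strand covers the whole Actc1 locus and had 0 counts in every library. The open reading frames of Actc1 and Acta1 are 86.2% identical, with a longest exact run of 29 bases, and those of Actc1 and Acta2 are 82.5% identical, with a longest run of 23 bases.

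Tnnt2, the cardiac member of the troponin T family, which ties troponin to the thin filament (ENSMUSG00000026414, chromosome 1, 135764092 to 135779998), had the narrowest span over libraries of the cardiac members, 11.2-fold, against 36.2-fold for Actc1 and 177-fold for Myh6. It had 64.2, 84.6 and 37.4 CPM in sST2-KO replicates 1 to 3, against 125, 11.2 and 83.5 CPM in WT replicates 1 to 3. WT replicate 2 was the lowest library and WT replicate 1 the highest, so the whole span lay within 1 group. The group means were 62.1 ± 23.7 CPM in sST2-KO and 73.1 ± 57.5 CPM in WT (SD, n = 3 each). The log2 change was -0.24 (SE 0.75; edgeR adjusted p = 0.908), and its sign depended on the libraries included: it was 0.38 without WT replicate 1, 0.022 without sST2-KO replicate 3 and -0.77 without WT replicate 2.

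**Figure D1:**
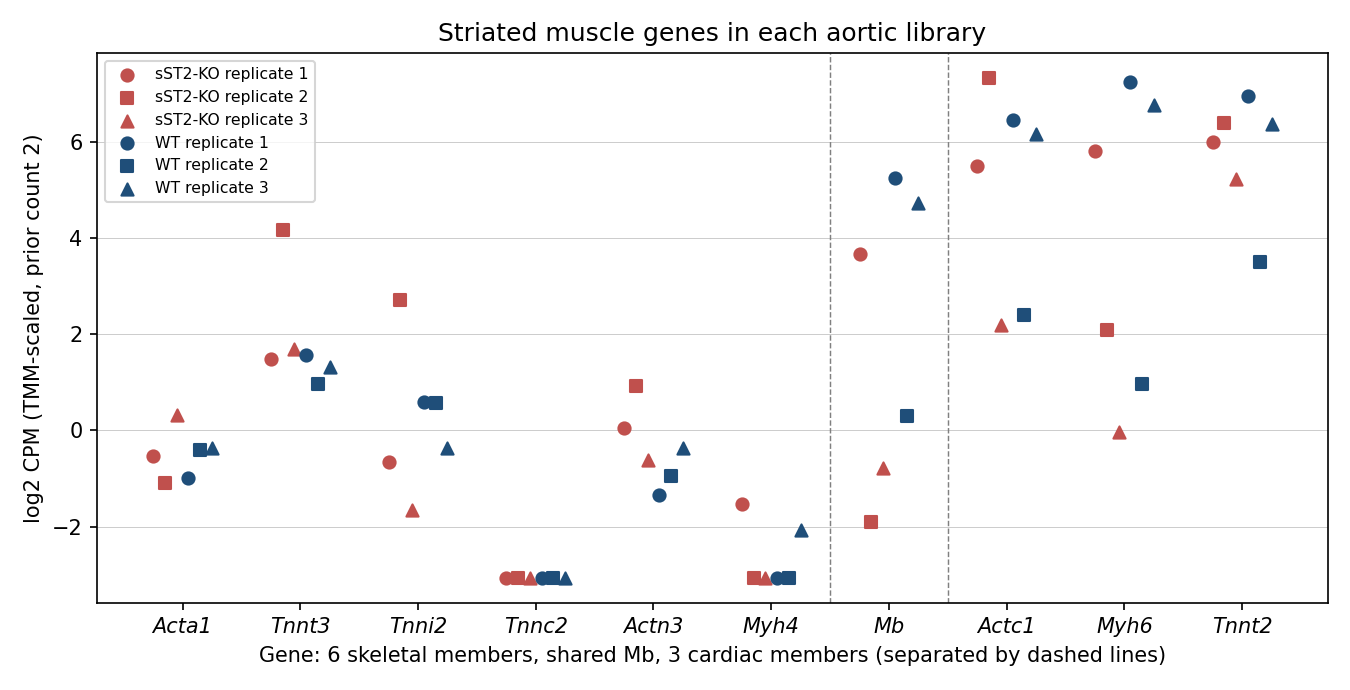
Level of each of the 10 members (x axis) as log2 CPM with a prior count of 2 (y axis); each point is 1 library, red for sST2-KO and blue for WT, with the marker shape giving the replicate. Mb, Actc1 and Myh6 spread over several log2 units within each group, while the skeletal members stay low except for Tnnt3 and Tnni2 in sST2-KO replicate 2.

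Set against Myh6 within a library, some cardiac transcripts kept like proportions in sST2-KO replicate 1, WT replicate 1 and WT replicate 3, the libraries with high Myh6, and others did not. Of 39 cardiac and atrial genes, 30 had at least 20 counts in each of these libraries. For 18 of the 30 the highest ratio to Myh6 was at most 2 times the lowest. The share of all genes within this limit was not computed. Myh6 itself had 56.1, 153 and 110 CPM in these libraries, so genes that do not follow Myh6 elsewhere can also pass. Tbx20, named after its values were seen, passed with 6.53 to 15.0 CPM in all sST2-KO libraries and 11.0 to 15.5 CPM in all WT libraries. The ratio of Mb counts to Myh6 counts was 0.224 in sST2-KO replicate 1, against 0.249 and 0.242 in WT replicates 1 and 3. The ratio of Actc1 to Myh6 counts was 0.807 in that sST2-KO library, against 0.578 and 0.658 in these WT libraries, and for Tnnt2 it was 1.15 against 0.814 and 0.762. For Tnni3, the inhibitory troponin subunit of the heart, it was 0.293 against 0.204 and 0.232, and for Myl7, the atrial myosin light chain, 0.323 against 0.346 and 0.289. The other 12 genes differed by more, among them Cox8b, with a ratio of 2.31 in sST2-KO replicate 1, against 0.364 and 0.334 in WT replicates 1 and 3, and Nppa, the atrial natriuretic peptide gene named after its values were seen, with 0.0213 against 0.122 and 0.144.

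In the other 3 libraries most of these ratios were higher. Myh6, the denominator, had 84 counts in sST2-KO replicate 2, 13 in sST2-KO replicate 3 and 23 in WT replicate 2. These ratios thus rest on few Myh6 counts. The libraries were also split by Myh6 itself, so any gene that fell less than Myh6 has a higher ratio here. In sST2-KO replicate 2 the ratio to Myh6 was 38.9 for Actc1, 20.4 for Tnnt2, 11.9 for Tnni3, 4.06 for Myl4, 0.548 for Myl7 and 0.0357 for Mb. In sST2-KO replicate 3 it was 43.2 for Tnnt2, 9.0 for Myl4, 5.15 for Actc1, 4.23 for Tnni3, 1.31 for Myl7 and 0.539 for Mb. In WT replicate 2 it was 6.09 for Tnnt2, 2.83 for Actc1, 2.0 for Tnni3, 1.83 for Myl4, 1.0 for Myl7 and 0.609 for Mb. Of the 30 genes, 19 had a higher ratio in each of these 3 libraries than in any of the libraries with high Myh6. The rest did not, among them Mb, whose ratio in sST2-KO replicate 2 was the lowest of all 6 libraries. The 30 genes were kept by their counts in the libraries with high Myh6. The count of 19 thus follows in part from the split, and no such count was made over all genes.

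**Figure D2:**
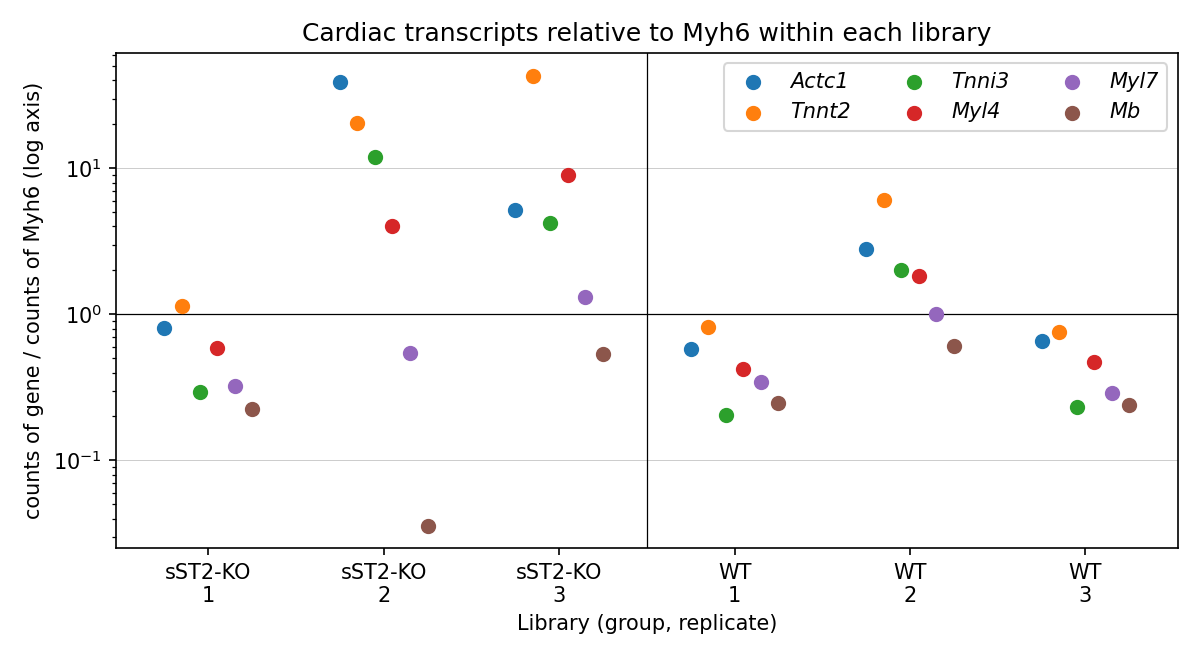
Counts of 6 cardiac transcripts divided by counts of Myh6 (y axis, log scale) in each library (x axis, sST2-KO left of WT); each colour is 1 gene. The points of each of these genes lie at like heights in sST2-KO replicate 1, WT replicate 1 and WT replicate 3, with Mb at 0.224, 0.249 and 0.242, whereas Actc1 is at 38.9 in sST2-KO replicate 2.

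Outside sST2-KO replicate 2, skeletal members other than Tnnt3 had at most 1.38 CPM in any library. Tnnt3, the troponin T of fast skeletal fibres (ENSMUSG00000061723, chromosome 7, 142052573 to 142069746), had the highest level per kilobase of the 6 in every library. Its levels were 2.67, 17.9 and 3.13 CPM in sST2-KO replicates 1 to 3, against 2.87, 1.83 and 2.39 CPM in WT replicates 1 to 3. Only sST2-KO replicate 2 stood out, and the groups overlapped. The log2 change was 1.74 (SE 0.78; edgeR adjusted p = 0.465), and without sST2-KO replicate 2 it was 0.29 (edgeR adjusted p = 0.802). Prr33, on the opposite strand, overlaps 7936 of the 17174 bases of the Tnnt3 locus, with 193 to 416 counts in sST2-KO libraries and 386 to 747 in WT libraries.

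Tnni2, the inhibitory troponin subunit of fast fibres (ENSMUSG00000031097, chromosome 7, 141995545 to 141998147), lies 54425 bases from Tnnt3. It had 0.511, 6.48 and 0.200 CPM in sST2-KO replicates 1 to 3, against 1.38, 1.36 and 0.656 CPM in WT replicates 1 to 3. The same sST2-KO library was high for both neighbours, with 131 Tnni2 counts, while the other sST2-KO libraries had 9 and 3 counts. The log2 change was 1.09 (SE 1.17; edgeR adjusted p = 0.706) and had the opposite sign, -1.63, without sST2-KO replicate 2.

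Actn3, the alpha-actinin that anchors thin filaments in fast fibres (ENSMUSG00000006457, chromosome 19, 4911244 to 4927937), had 16, 36 and 8 counts in sST2-KO replicates 1 to 3 and 5, 5 and 11 counts in WT replicates 1 to 3. That equalled 0.909, 1.78 and 0.532 CPM in sST2-KO, against 0.276, 0.399 and 0.656 CPM in WT, so the groups overlapped in 1 library of each. The log2 change was 1.27 (SE 0.67, edgeR adjusted p = 0.501), and 0.70 without sST2-KO replicate 2 (edgeR adjusted p = 0.718).

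The remaining 3 skeletal members did not pass the filter on low counts. Acta1, the skeletal alpha-actin (ENSMUSG00000031972, chromosome 8, 124618508 to 124621490), had 10, 7 and 17 counts in sST2-KO replicates 1 to 3 and 7, 8 and 11 counts in WT replicates 1 to 3. These equalled 0.568, 0.346 and 1.13 CPM in sST2-KO and 0.386, 0.638 and 0.656 CPM in WT. Without the filter its log2 change was 0.29 (SE 0.83; edgeR adjusted p = 0.897), and no library stood out. Myh4, the myosin heavy chain of the fastest fibres (ENSMUSG00000057003, chromosome 11, 67128855 to 67151272), had 4, 0 and 0 counts in sST2-KO replicates 1 to 3 and 0, 0 and 2 counts in WT replicates 1 to 3. Tnnc2, the calcium-binding troponin subunit of fast fibres (ENSMUSG00000017300, chromosome 2, 164619081 to 164621887), had 0 counts in all 6 libraries. Ube2c, on the opposite strand, overlaps 1662 of the 2807 bases of the Tnnc2 locus and had 36 to 102 counts in sST2-KO libraries and 29 to 270 in WT libraries.

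The order of the members' levels was taken from CPM per kilobase of the listed gene length. In sST2-KO replicate 2 the order was Actc1 at 99.8, Tnnt3 at 11.3, Tnnt2 at 10.9 and Tnni2 at 4.33 CPM per kilobase. Next were Myh6 at 0.618, Actn3 at 0.614, Acta1 at 0.2255 and Mb at 0.0995 CPM per kilobase. In sST2-KO replicate 1, Actc1 led with 28.0 CPM per kilobase, Mb, Myh6 and Tnnt2 followed between 8.28 and 8.42, and Tnnt3 was at 1.69. In WT replicate 1 the order was Actc1 at 54.8, Mb at 25.6, Myh6 at 22.8, Tnnt2 at 16.1 and Tnnt3 at 1.81 CPM per kilobase. Actc1 led in each of these 3 libraries, and also in WT replicates 2 and 3, with 3.20 and 44.6 CPM per kilobase. In sST2-KO replicate 3 the order was led by Tnnt2 at 4.82, then Actc1 at 2.75 and Tnnt3 at 1.98 CPM per kilobase. Averaged over libraries, Actc1 had 43.5 CPM per kilobase in sST2-KO and 34.2 in WT, and Acta1, its skeletal counterpart, had 0.444 in sST2-KO and 0.364 in WT.

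The contrast of skeletal with cardiac members was taken as a difference of mean log2 CPM within each library. The 6 skeletal members averaged -0.71, 0.099 and -1.06 log2 CPM in sST2-KO replicates 1 to 3, against -1.05, -0.99 and -0.82 in WT replicates 1 to 3. The 3 cardiac members averaged 5.77, 5.28 and 2.47 log2 CPM in sST2-KO replicates 1 to 3, against 6.90, 2.29 and 6.45 in WT replicates 1 to 3. Skeletal minus cardiac was -6.49, -5.18 and -3.53 in sST2-KO replicates 1 to 3, against -7.95, -3.28 and -7.26 in WT replicates 1 to 3. Per kilobase of gene length it was -5.30, -3.99 and -2.34 in sST2-KO, against -6.76, -2.09 and -6.08 in WT. It was negative in all 6 libraries on both scales. The difference of the group means was 1.10 log2 units, less than the pooled SD between replicates of 2.07. It depended on single libraries, at 2.54 without WT replicate 2, 1.81 without sST2-KO replicate 1, 0.55 without WT replicate 3, 0.33 without sST2-KO replicate 3 and 0.21 without WT replicate 1. The cardiac means spanned 4.61 log2 units over the libraries and the skeletal means 1.16. The skeletal mean includes Tnnc2 at 0 counts throughout and Myh4 at 0 counts in 4 libraries, which narrows it, and over the 4 skeletal members with counts in every library it spanned 1.74.

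**Figure D3:**
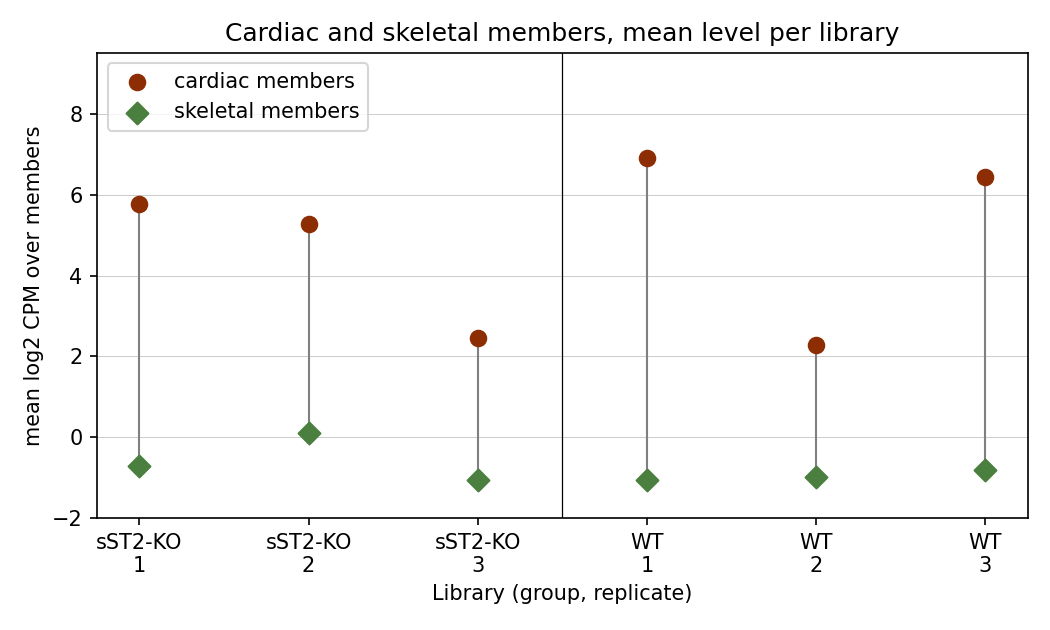
Mean log2 CPM (y axis) of the 3 cardiac members (brown circles) and the 6 skeletal members (green diamonds) in each library (x axis, sST2-KO left of WT); the grey line joins the means of a library. The cardiac mean lies above the skeletal mean in all 6 libraries, and the gap is smallest in sST2-KO replicate 3 and WT replicate 2.

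None of the tested members passed the test, and none separated the groups. Of the 10, 7 were tested, and 0 passed at an adjusted p of 0.05 in edgeR, where the background was 0.00% of 16377 tested genes in each direction. At an unadjusted p under 0.05 there were 0 of 7 members, against a background of 11.0% of tested genes in either direction (5.08% higher and 5.95% lower in sST2-KO). DESeq2 called 0 of the 7, against a background of 0.347% of its tested genes higher and 1.04% lower in sST2-KO. The groups overlapped for all 10 members, whereas 19.1% of tested genes did not overlap (9.09% higher in sST2-KO, the rest lower). The 3 tested skeletal members had a median log2 change of 1.27, the 3 cardiac members of -0.24, and all tested genes of 0.042. Only 3 of the 6 skeletal members passed the filter, all with sST2-KO replicate 2 as their highest library, so this median does not stand for the skeletal group. These tests rest on 3 mice in each group, and an adjusted p above the threshold does not show that the groups were alike.

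**Figure D4:**
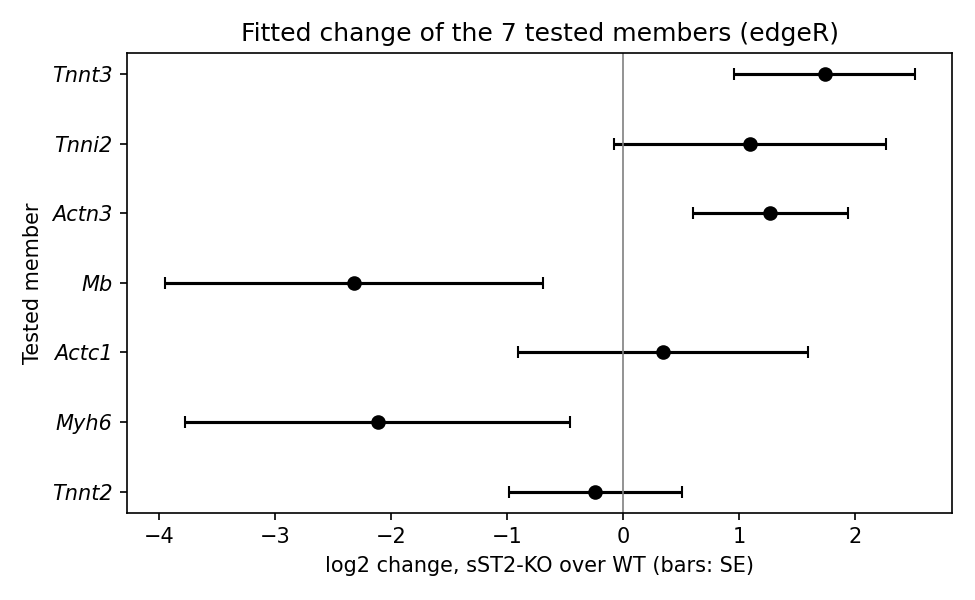
Fitted log2 change of sST2-KO over WT (x axis) for the 7 tested members (y axis), with bars of 1 SE. The 3 skeletal members lie right of 0, from 1.09 to 1.74, Mb and Myh6 lie left at -2.32 and -2.12, and none passed the threshold.

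Some heart genes had their high libraries in common with Myh6 and others with Actc1. In the list of 35 further cardiac genes, 29 were tested, 9 had positive and 20 negative log2 changes, 0 passed in edgeR, and the median was -0.68, against 0.042 for all tested genes. Leaving out WT replicate 1 gave a median of -0.15, and leaving out WT replicate 2 gave -1.18. Tnni3 had 16.4, 49.3 and 3.66 CPM in sST2-KO replicates 1 to 3, against 31.2, 3.67 and 25.5 CPM in WT replicates 1 to 3, with its maximum in the same library as Actc1. Myl7 had 18.1, 2.28 and 1.13 CPM in sST2-KO replicates 1 to 3, against 53.0, 1.83 and 31.7 CPM in WT replicates 1 to 3, the order of Myh6. Myl4, the other atrial light chain, had 32.8, 16.9 and 7.78 CPM in sST2-KO, against 64.6, 3.35 and 51.8 CPM in WT. Cox8b, a cytochrome oxidase subunit of heart, skeletal muscle and brown fat, had 129.5, 8.07 and 129.7 CPM in sST2-KO, against 55.8, 2.71 and 36.6 CPM in WT. It was thus high in sST2-KO replicate 3, where Myh6 was at its lowest. Ankrd1, a stress-responsive muscle protein, had 21.1, 9.01 and 36.3 CPM in sST2-KO, against 22.7, 11.5 and 21.8 CPM in WT.

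Atrial genes summed to 74.1, 23.2 and 22.8 CPM in sST2-KO replicates 1 to 3, against 180, 14.4 and 129 CPM in WT replicates 1 to 3. Of 8 atrial genes 7 were tested and 0 passed in edgeR. All of the 8 but Kcna5 are also in the list of further cardiac genes. All 7 log2 changes were negative (median -2.01), and the groups overlapped for each. Most of these genes shared their high libraries, so their signs are not independent of each other. Of all tested genes, 46.5% had negative log2 changes. The median was -3.90 without sST2-KO replicate 1, -1.23 without WT replicate 1 and -1.33 when sST2-KO replicate 2 and WT replicate 3 were left out together. Sln, the small inhibitor of the calcium pump in atria, had 7.90, 0.0990 and 0 CPM in sST2-KO replicates 1 to 3, against 23.5, 0.399 and 13.5 CPM in WT replicates 1 to 3. Nppa had 21, 1 and 0 counts in sST2-KO replicates 1 to 3 and 339, 0 and 265 counts in WT replicates 1 to 3 (edgeR adjusted p = 0.4495). In sST2-KO replicate 1, where Myh6 was high, Nppa was at 1.19 CPM, against 18.7 and 15.8 CPM in WT replicates 1 and 3. Of 6 ventricular genes 4 were tested, 0 passed in edgeR, and Irx4 had 0 counts in all libraries. Myl3, a ventricular and slow-fibre light chain, had 1.19, 0.148 and 1.60 CPM in sST2-KO and 2.37, 0.797 and 1.37 CPM in WT. Hey2, a transcription factor gene also used by vessels, had 24.3 to 36.9 CPM in sST2-KO and 26.2 to 53.5 CPM in WT.

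No gene of the wider skeletal lists passed the test. Of 30 further fast-fibre genes 21 were tested, with 14 positive and 7 negative log2 changes, a median of 0.31 and 0 passing in edgeR. With 1 library left out this median lay between 0.021 (without sST2-KO replicate 3) and 0.19 (without WT replicate 3), and it was -0.020 in limma-voom with sample quality weights. Tcap, the titin cap of the Z disc, had 37.4, 83.3 and 68.2 CPM in sST2-KO and 43.5, 43.2 and 56.2 CPM in WT (log2 change 0.40, SE 0.30, edgeR adjusted p = 0.593). Pygm, muscle glycogen phosphorylase, had 22.1 to 25.1 CPM in sST2-KO and 18.3 to 30.9 CPM in WT. Eno3, the muscle enolase, had 21.9 to 24.5 CPM in sST2-KO and 10.6 to 23.2 CPM in WT. Of 12 slow-fibre genes 9 were tested and 0 passed. Tnnc1, the troponin C of heart and slow fibres, had 6.36, 1.39 and 2.06 CPM in sST2-KO and 2.55 to 13.1 CPM in WT. Ttn, the giant sarcomere spring, is named after its values were seen and had 230, 39 and 18 counts in sST2-KO and 500, 1 and 341 counts in WT.

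Of 17 myogenic regulators and immature muscle genes, 13 had any count and 4 were tested, with 0 passing in edgeR. The master regulators Myod1, Myog and Myf5 had 0 counts in all 6 libraries. Pax7, a marker of skeletal muscle stem cells that is named after its values were seen, had 27 counts in sST2-KO replicate 2 and 0 in the other sST2-KO libraries and in all WT libraries. Chrna1, a subunit of the acetylcholine receptor of skeletal muscle, had 1.02, 3.81 and 1.53 CPM in sST2-KO and 0.717, 2.07 and 0.298 CPM in WT (edgeR adjusted p = 0.601).

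Markers of other cell types moved with some of these values. The library with the highest Actc1, Tnni3, Tnnt3, Tnni2 and Actn3, sST2-KO replicate 2, was the one with airway transcripts: Scgb1a1, a secretoglobin of club cells, reached 12600 CPM there, at most 1.20 CPM in other sST2-KO libraries and at most 7.89 CPM in WT libraries. In the same library Des, the intermediate filament gene of all muscle types, named after its values were seen, had 391 CPM, against 47.0 and 54.7 CPM in the other sST2-KO libraries and 25.6 to 45.0 CPM in WT libraries. All 11 airway markers had counts in that library, but also in sST2-KO replicate 3 and WT replicate 3, so their presence alone does not set it apart. Oesophageal epithelium markers summed to 423.5 CPM in sST2-KO replicate 2, to 2.33 and 2.56 CPM in other sST2-KO libraries and to 1.12 to 10.7 CPM in WT libraries. Of the sum in sST2-KO replicate 2, Krt15 and Krt5, basal-cell keratins that airway epithelium also has, made up 273 and 99.0 CPM. Trp63, of the same list, had 29.6 CPM in sST2-KO replicate 2, at most 1.996 CPM in other sST2-KO libraries and at most 3.198 CPM in WT libraries. Krt4 had 16.97 CPM in sST2-KO replicate 2, at most 0.227 CPM in other sST2-KO libraries and 0 CPM in WT libraries. Krt14, of the same list and named after its values were seen, was highest in WT replicate 1. It had 0.0568, 2.92 and 0 CPM in sST2-KO replicates 1 to 3, against 7.11, 0.159 and 4.95 CPM in WT replicates 1 to 3. Krt13, Krt6a and Dsg3, named after their values were seen, had 0.693, 0.148 and 0.198 CPM in sST2-KO replicate 2, and Sprr3 was at 0 in all libraries. Alveolar markers summed to 181 CPM there, to 5.85 and 8.92 CPM in other sST2-KO libraries and to 4.46 to 12.1 CPM in WT libraries. Schwann cell markers summed to 557 CPM there, to 66.9 and 96.4 CPM in other sST2-KO libraries and to 54.8 to 78.5 CPM in WT libraries. The part of these tissues in the levels of the members was not tested.

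Brown adipocyte markers summed to 1453, 248 and 2781 CPM in sST2-KO replicates 1 to 3, against 447, 239 and 358 CPM in WT replicates 1 to 3, and were highest in sST2-KO replicate 3, where Myh6 had 0.865 CPM. White adipocyte markers summed to 8232, 1640 and 10150 CPM in sST2-KO, against 6357, 2012 and 4984 CPM in WT. They were low in the same WT library as Myh6, but highest in sST2-KO replicate 3, where Myh6 was lowest. The highest smooth muscle sums, 14470 CPM in sST2-KO and 12990 CPM in WT, were in sST2-KO replicate 3 and WT replicate 2, whose cardiac members summed to 42.7 and 18.2 CPM. In WT replicate 3, the library with hepatocyte transcripts, the ratios to Myh6 were 0.242 for Mb, 0.658 for Actc1 and 0.762 for Tnnt2, against 0.249, 0.578 and 0.814 in WT replicate 1. The part of adipose and smooth muscle content in these levels was not tested.

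**Figure D5:**
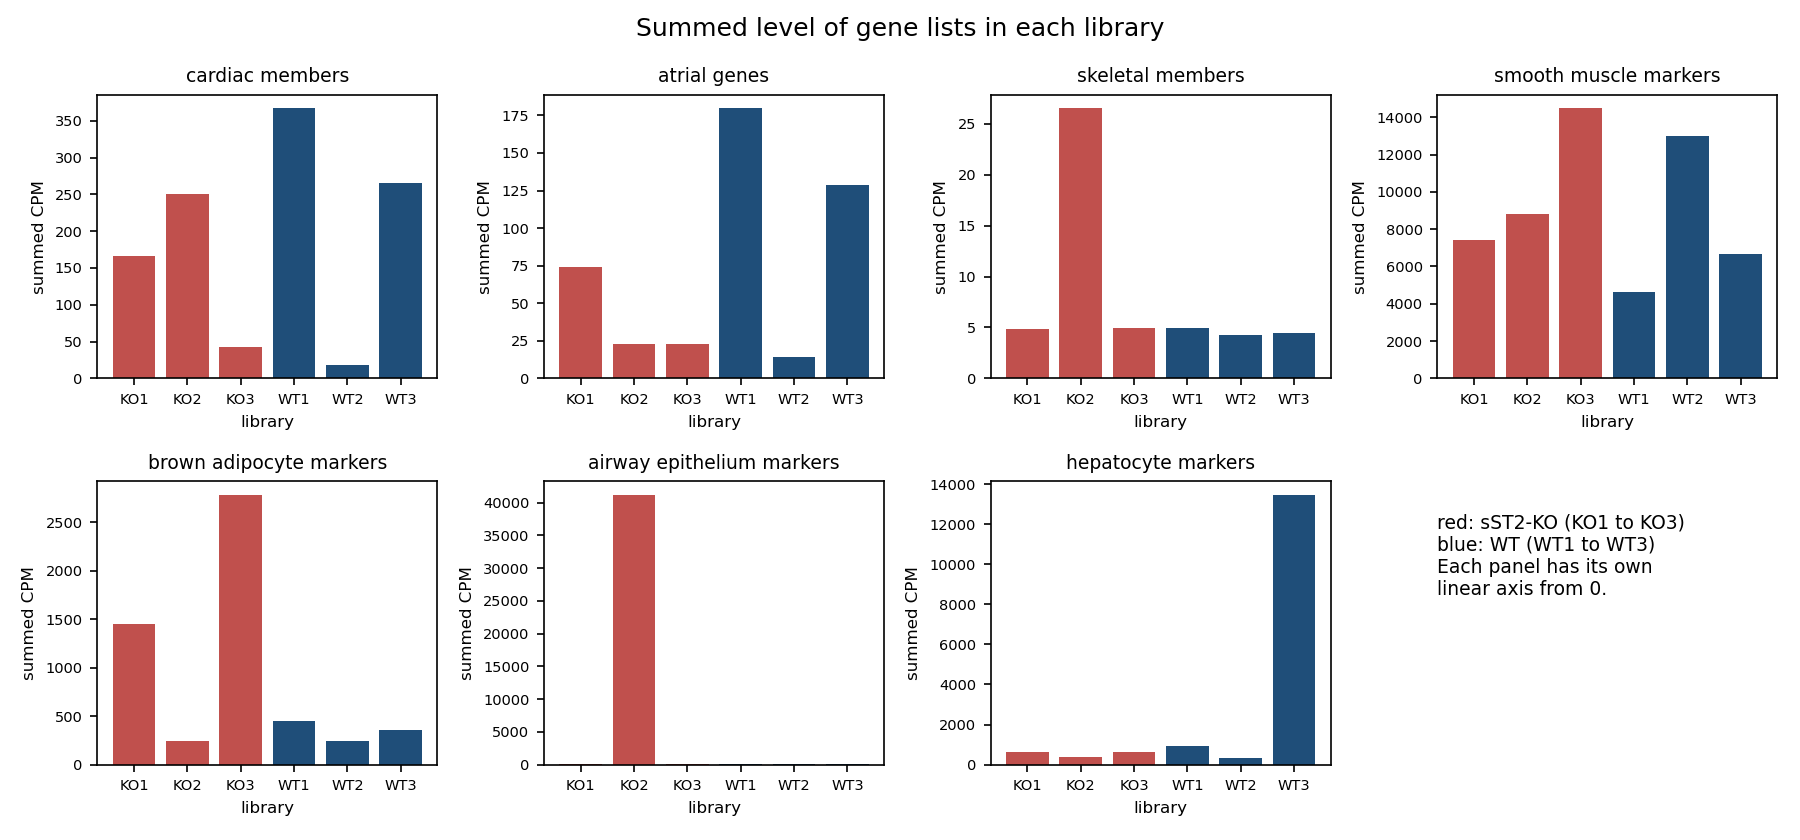
Summed CPM (y axis, linear from 0, a separate scale in each panel) of 7 gene lists in each library (x axis, sST2-KO in red left of WT in blue). Cardiac members and atrial genes are highest in WT replicate 1, skeletal members and airway epithelium markers in sST2-KO replicate 2, smooth muscle and brown adipocyte markers in sST2-KO replicate 3, and hepatocyte markers in WT replicate 3.

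The members' paralogs were followed in the same libraries. Among the 6 actin genes, Acta2, the smooth muscle actin, had 2890, 2933 and 6588 CPM in sST2-KO replicates 1 to 3, against 1644, 5479 and 2411 CPM in WT replicates 1 to 3. Acta1 lay below Actc1 per kilobase in all 6 libraries, with 0.00215 to 0.254 Acta1 counts for each Actc1 count in sST2-KO and 0.00436 to 0.123 in WT. Actg2, the enteric smooth muscle actin, had 62.9, 146 and 125 CPM in sST2-KO and 29.7, 66.3 and 41.4 CPM in WT (log2 change 1.28, SE 0.40, edgeR adjusted p = 0.430). Among the 4 alpha-actinins, Actn4 and Actn1 had 370 to 752 CPM in sST2-KO and 299 to 637 CPM in WT, and the striated Actn2 had 8.12, 12.1 and 18.4 CPM in sST2-KO and 10.3, 5.66 and 9.24 CPM in WT. Among troponins, Tnnt3 counts were 0.0416, 0.212 and 0.0836 of Tnnt2 counts in sST2-KO replicates 1 to 3 and 0.0230, 0.164 and 0.0285 in WT replicates 1 to 3.

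Likeness of pattern was measured by Pearson's r over the 6 libraries among 13405 named protein-coding genes with a mean of at least 1 CPM. With only 6 points, which share depth and scaling, many genes come close: 576 had an r above 0.9 with the skeletal mean and 106 with the cardiac mean. Nearest to the skeletal mean were Cacna1h (r = 0.999), Zfp467 (0.998), Nme5 (0.995), Foxp4 (0.994), Kcnq1 (0.993) and Slc45a4 (0.992), each highest in sST2-KO replicate 2. Without the 2 libraries farthest from the median, both sST2-KO, their r was 0.817 to 0.992. Nearest to the cardiac mean were Sbno2 (r = 0.991), Wdr76 (0.989), Gna15 (0.981), Incenp (0.980), Mocs1 (0.980) and Uba7 (0.980), with r of 0.706 to 0.976 without sST2-KO replicate 3 and WT replicate 2. None of these 12 is in any list used here. Their own ranges were narrow beside those of the cardiac members, Sbno2 for example having 84.4 to 116 CPM in sST2-KO and 78.9 to 136 CPM in WT.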

How the data were processed

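The deposited table gives raw counts per Ensembl gene for 6 aortic libraries, made by the authors and not normalized. Per the submitters' processing notes the build is mm39. Aligner, counting program, strand setting and annotation: not given in the sources used here. Per the labels' protocols, polyadenylated RNA was captured and primed with random hexamers. Gene lengths came from another deposited column. Samples were grouped from their titles and the design text, and 0 value columns were left unmapped.

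Genes passed filterByExpr (minimum count 10, minimum total 15), leaving 16377 of 56748. After TMM scaling, edgeR 4.0.16 (glmQLFit, glmQLFTest) in R 4.3.3 tested sST2-KO against WT, with Benjamini-Hochberg adjustment over all tested genes and a threshold of 0.05. The SE is the log2 change divided by the square root of F. The fit was tested on simulated data whose spread between libraries was set below the fitted one. Log2 CPM used a prior count of 2. DESeq2 1.42.0, limma 3.58.1 (voom), other scalings and filters, a replicate block and left-out libraries were alternatives; the list medians under them, the left-out values of the skeletal minus cardiac level and the counts of ratios to Myh6 were added after seeing the data. Open reading frames are the longest per gene in GENCODE transcripts, aligned with Biopython 1.88. Named genes are the 10 members, up to 4 genes of each list with the highest mean level, and the 6 genes nearest to each pattern. Others are marked in the text. The members and lists were chosen with earlier results of these data known.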

Additional observations from a re-analysis of the deposited data

How the results depend on the processing

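Of the 7 tested members 0 passed under any alternative run. The count over all genes, 0 in edgeR, was 219 in DESeq2 and 43 in limma-voom with sample quality weights, and ranged from 0 to 1 with 1 library left out (Gm45104 without sST2-KO replicate 2, log2 change -5.23, edgeR adjusted p = 0.0493, named after its values were seen). At an unadjusted p under 0.05 edgeR had 1806 genes. The skeletal median of 1.27 was -0.81 when sST2-KO replicate 2 and WT replicate 3 were left out together, where Actn3 was not tested; with 1 library left out it ranged from 0.29 to 1.67, and the cardiac median from -1.16 to 0.38. Signs of 3 members changed. Tnni2 (1.09) was -0.047 in limma-voom, -0.49 with quality weights, -0.20 with the replicate block, -1.63 without sST2-KO replicate 2 and -1.91 without that library and WT replicate 3. Actc1 (0.35) was -0.046, -1.32, -0.55, -1.16 and -0.94 under the same settings, and -0.22 without WT replicate 2. Tnnt2 (-0.24) was 0.22 in limma-voom, 0.074 with the replicate block, 0.022 without sST2-KO replicate 3 and 0.38 without WT replicate 1. With 1 library left out, Tnni2 ranged from -1.63 to 1.63, Actc1 from -1.16 to 0.90 and Tnnt2 from -0.77 to 0.38. The cause was not tested. The other 4 kept their sign in every setting that tested them. The replicate numbers share only a number: deviations of same-numbered libraries correlated at 0.145, 0.046 and -0.087, and the block changed no call. The group difference in skeletal minus cardiac level, 1.10, ranged from 0.21 to 2.54 with 1 library left out, settings added after seeing the data. Scalings of the library size and gene length cancel in this difference and bear little on it. With a prior count of 0.5 the group difference was 1.13. The level itself was then lower in each library, for example -8.74 against -7.95 in WT replicate 1 and -4.28 against -3.53 in sST2-KO replicate 3. Acta1, Myh4 and Tnnc2 were below the filter on low counts.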
